A study of Homo sapiens and Mus musculus with 57 samples.

Results

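The clustered histone genes are the genes of the human histone clusters, HIST1 to HIST4, that code for the linker histone H1 and the core histones H2A, H2B, H3 and H4. They were taken as every row of the human files whose symbol starts with HIST1H, HIST2H, HIST3H or HIST4H, the older histone nomenclature, which gave 69 of 30373 rows. Of these, 32 genes had a mean of 0.5 CPM (counts scaled to a common library total) or more in at least 1 group of libraries and are reported, and the other 37 were below it everywhere. Just outside that limit lay HIST2H3D, with 0.490 CPM in its highest group, and HIST1H3B, with 0.381 CPM. Just inside lay HIST1H2BO, with 0.608 CPM, and HIST2H2BF, with 0.634 CPM. The reported genes were 3 of 6 H1 genes, 7 of 16 H2A genes, 12 of 20 H2B genes, 5 of 13 H3 genes and 5 of 14 H4 genes, and 2 of the H2B genes, HIST2H2BA and HIST2H2BC, are pseudogenes.

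The 33 human libraries came from 4 established tumour lines, in 11 groups of 3 libraries: HCT116 and Colo205 from colorectal cancers, MDA-MB-231 from a breast cancer and THP-1 from a monocytic leukaemia. Cells had 16 h of DMSO, the vehicle, or of 1 uM TAK-981, and the 3 carcinoma lines also had groups with 1 uM ML-792. Both compounds inhibit the SUMO-activating enzyme, which starts the attachment of the small protein SUMO to other proteins. Each line is 1 cell line, not several donors. Nothing in the labels tells whether the 3 wells of a group were independent cultures, and p-values therefore measure the spread among libraries, which may be only technical. The comparisons addressed how the lines responded to each compound and how the compounds compared.

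Most clustered histone genes are switched on when a cell copies its DNA, so that new DNA is packed at once into nucleosomes. Their RNA is unusual in that it normally ends in a short stem-loop rather than a poly(A) tail. The stem-loop-binding protein SLBP holds this structure, and a machinery with the U7 small nuclear RNA cuts the transcript behind it. Some clustered genes can also give a longer, polyadenylated RNA that reads past the stem-loop, a form known from cells that have left the cell cycle. The libraries were made from poly(A) RNA, so the counts reflect tailed forms and whatever untailed RNA was carried along, not the whole histone RNA of a cell.

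The stem-loops themselves are shown because they mark where the untailed transcript ends. The search read the transcripts of GENCODE 29 (GRCh38), in the direction of transcription only, for 16 letters: a first stem strand GGNNCT of 6 letters, a loop TTTN of 4 and a second stem strand AGNNCC, where N is any base. This motif was found in 80 of 58721 genes, or 0.136%, and in 28 of the 69 clustered histone genes. It came in 5 forms, in which the capitals mark the loop.
HIST1H2AC, HIST2H2AA4, HIST2H2BE, HIST3H2A and 10 more genes: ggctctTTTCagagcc
HIST1H2BC, HIST1H2BD, HIST1H3G and 2 more genes: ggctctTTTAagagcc
HIST1H4H, HIST4H4 and 3 more genes: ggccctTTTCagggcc
HIST2H4A and HIST1H4I: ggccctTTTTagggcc
HIST1H2AG and HIST2H2BC: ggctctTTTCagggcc

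The H4 genes with a match carried a stem that opens with ggccct, and the H2A, H2B and H3 genes one that opens with ggctct. Among the 32 reported genes 19 held the motif, and 16 of these had an annotated transcript that goes on for 100 bases or more past it. Among the 37 genes below the limit 9 held it, and 5 had such a transcript. The longest annotated transcript of a reported gene had a median of 842 bases, against 411 bases in the others. In all, 14 against 6 genes had one of 1000 bases or more. The limit is in CPM, which is not scaled to length, so longer transcripts can pass it more easily. These differences between reported and other genes may come in part from the limit itself. Many of the other transcript models stop close to the coding end, so a missing match says only that these letters are not in the model. The genes with long models include HIST2H2BE, HIST1H2AC, HIST1H2BH and HIST1H2AG, all of which were measured in some line. They also include HIST1H3E, HIST1H2BE and HIST3H2BB, which were below the limit. HIST1H2BK and HIST1H1C, among the highest genes, had models of 381 and 642 bases without the motif.

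Promoters of 3 genes are shown next: HIST1H2BK, which rose in all 4 lines with TAK-981, HIST1H1C, which rose in 3, and HIST2H2BE, whose near neighbour HIST2H2AC did not follow it in THP-1. Each window holds 250 bases before and 50 after the transcription start in RefSeq (GRCh38.p14), read along the strand of the gene. Capitals mark matches on either strand, and matches that touch or overlap run together. The motifs were the TATA box TATAAA, the CCAAT box CCAAT (the site of the factor NF-Y), the octamer ATTTGCAT (the site of the factor OCT-1) and the E2F core TTTCGCGC. The letters AAACACAAA were searched as the H1 box.
HIST1H2BK, chr6:27146809-27147108, minus strand: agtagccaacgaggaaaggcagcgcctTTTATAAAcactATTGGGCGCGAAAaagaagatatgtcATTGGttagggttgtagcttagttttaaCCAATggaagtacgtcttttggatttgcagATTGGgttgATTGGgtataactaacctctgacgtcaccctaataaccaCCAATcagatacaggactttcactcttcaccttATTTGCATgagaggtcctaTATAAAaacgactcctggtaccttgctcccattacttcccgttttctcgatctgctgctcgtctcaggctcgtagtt
HIST1H1C, chr6:26056421-26056720, minus strand: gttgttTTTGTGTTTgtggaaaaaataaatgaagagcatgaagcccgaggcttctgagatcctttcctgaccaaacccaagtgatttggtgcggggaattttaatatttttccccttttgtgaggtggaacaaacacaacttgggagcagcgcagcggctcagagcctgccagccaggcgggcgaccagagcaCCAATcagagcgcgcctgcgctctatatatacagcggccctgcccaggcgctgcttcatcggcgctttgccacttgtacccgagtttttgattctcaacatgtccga
HIST2H2BE, chr1:149886633-149886932, minus strand: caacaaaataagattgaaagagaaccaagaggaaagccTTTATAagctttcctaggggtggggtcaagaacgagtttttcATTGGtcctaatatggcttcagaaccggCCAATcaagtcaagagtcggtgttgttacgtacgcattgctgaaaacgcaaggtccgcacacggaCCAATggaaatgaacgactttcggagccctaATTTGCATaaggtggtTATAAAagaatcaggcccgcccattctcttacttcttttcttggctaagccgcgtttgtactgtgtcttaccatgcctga

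Of the 69 genes 56 matched 1 gene each in the promoter table. A CCAAT box was in 47 of these 56 windows, against 34.6% of all 35097 promoters of the same length, and a TATA box in 38, against 11.5%. The CCAAT box was in all 14 H2A, all 13 H2B, all 11 H3 and all 6 H1 windows, and in 3 of 12 H4 windows. The octamer was in 11 of 14 H2A and 9 of 13 H2B windows, in 1 H3 window and in no H1 or H4 window, against 1.77% of all promoters. The E2F core was in 11 of the 56 windows, against 0.516%. The exact letters AAACACAAA, searched as the H1 box, were in 3 of 6 H1 windows, against 0.635%. The shorter run AAACACA was not counted, and it also stands unmarked in the printed HIST1H1C window, nearer to the start. The windows of HIST2H2BE and HIST2H2AC overlap, since these genes are transcribed away from each other with 236 bases between their starts. In all, 8 pairs of genes were transcribed away from each other with starts at most 1000 bases apart, and both members were reported in 4 of them. A match is a run of letters and does not show that a factor binds there.

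Library totals ran from 17336368 to 25807864 counts, and 4 of the 69 genes had no count in any human library. Mitochondrial genes held 3.89% ± 0.208 (MDA-MB-231 with ML-792) to 8.15% ± 0.960 (HCT116 with TAK-981) of the counts in the groups of the carcinoma lines (SD, n = 3). In THP-1 their share went from 7.38% ± 0.215 with DMSO to 15.5% ± 1.75 with TAK-981 (SD, n = 3), beside every THP-1 result below, and its part in those results was not tested. The summed level of the 10 myeloid markers there was 3326 to 3435 CPM with DMSO and 1344 to 1454 CPM with TAK-981. Singly 3 rose, 4 fell and 3 did not pass, where 35.5% of all genes tested rose and 33.9% fell. The median log2 difference of the 10 markers was -0.06, and their part was not tested either. All 10 myeloid markers were above 0 in THP-1, and all 10 epithelial markers in the HCT116 and Colo205 DMSO libraries. Being above 0 does not separate the lines, since 2 of 10 epithelial markers were at 0 in THP-1 DMSO libraries. With DMSO, epithelial markers summed to 2963 to 3316 CPM in HCT116, 7584 to 8075 in Colo205, 1259 to 1330 in MDA-MB-231 and 5.11 to 5.41 in THP-1. A mesenchymal list summed to 8387 to 9084 CPM in MDA-MB-231 and to at most 1909 CPM in the other lines. Myeloid markers summed to at most 5.55 CPM in HCT116 and MDA-MB-231. Colo205 also held 1633 to 1777 CPM of the myeloid list in its DMSO libraries, with 5 of 10 genes at 0. In bulk RNA, fewer cells that carry a transcript and less of it per cell cannot be told apart. Fractional values, which arise where reads are shared between copies, occurred in 10 of the 32 reported genes. They were most frequent in HIST2H4A (29 of 33 libraries), HIST1H4K (27) and HIST1H2BJ (27), whose values are therefore uncertain, and without known strand, reads of antisense or overlapping genes cannot be told apart.

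In DMSO the lines differed widely in the clustered histone RNA counted in these poly(A) libraries. The sum over all 69 genes was 41.2 ± 2.22 CPM in THP-1, 52.3 ± 3.03 in HCT116, 105 ± 4.24 in MDA-MB-231 and 320.3 ± 17.95 in Colo205 (SD, n = 3), on the CPM scale after TMM scaling over all human libraries. No DMSO library of one line lay within the range of another line. Of 29 reported genes tested, 28 differed between the lines (adjusted p under 0.05, edgeR quasi-likelihood test), beside 99.1% of all genes tested. That count is therefore close to the background. THP-1 and the carcinoma lines were grown in different plate formats, so that line and culture cannot be told apart.

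**Figure D1:**
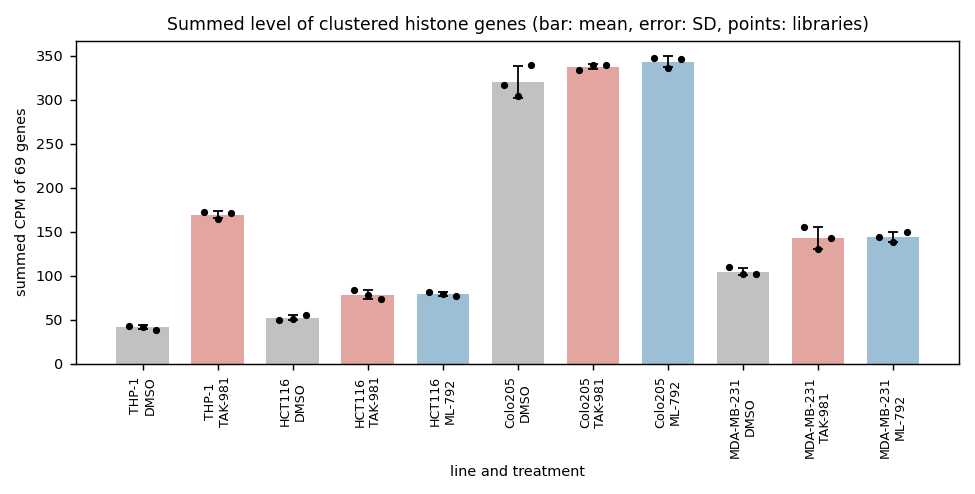
Summed level of the 69 clustered histone genes in CPM (vertical axis) for each line and treatment (horizontal axis); bars are means of 3 libraries, error bars the SD and points the libraries. THP-1 went from 41.2 to 169 CPM with TAK-981, while all Colo205 groups lay between 320.3 and 343 CPM.

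The leading genes, compared per length in FPKM (fragments scaled to transcript length and library total), were few. HIST1H2BK, an H2B gene, had the highest mean level in the DMSO groups of the 3 carcinoma lines, with 149 ± 8.56 FPKM in Colo205, 65.7 ± 3.51 in MDA-MB-231 and 22.7 ± 1.47 in HCT116 (SD, n = 3). It made up 42.7%, 48.9% and 32.3% of the summed FPKM of the clustered genes there. In THP-1 DMSO libraries HIST2H2AA4, an H2A gene, came first with 10.6 ± 1.45 FPKM, then HIST1H2BK, and HIST1H2BH with 6.70 ± 1.16. HIST1H1C, which codes for the linker histone H1.2, was also among the 3 highest in each carcinoma line, with 38.2 FPKM in Colo205, 26.8 in MDA-MB-231 and 8.16 in HCT116. H3 genes made up 2.49 to 4.27% of the summed FPKM in DMSO libraries of all 4 lines.

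**Figure D2:**
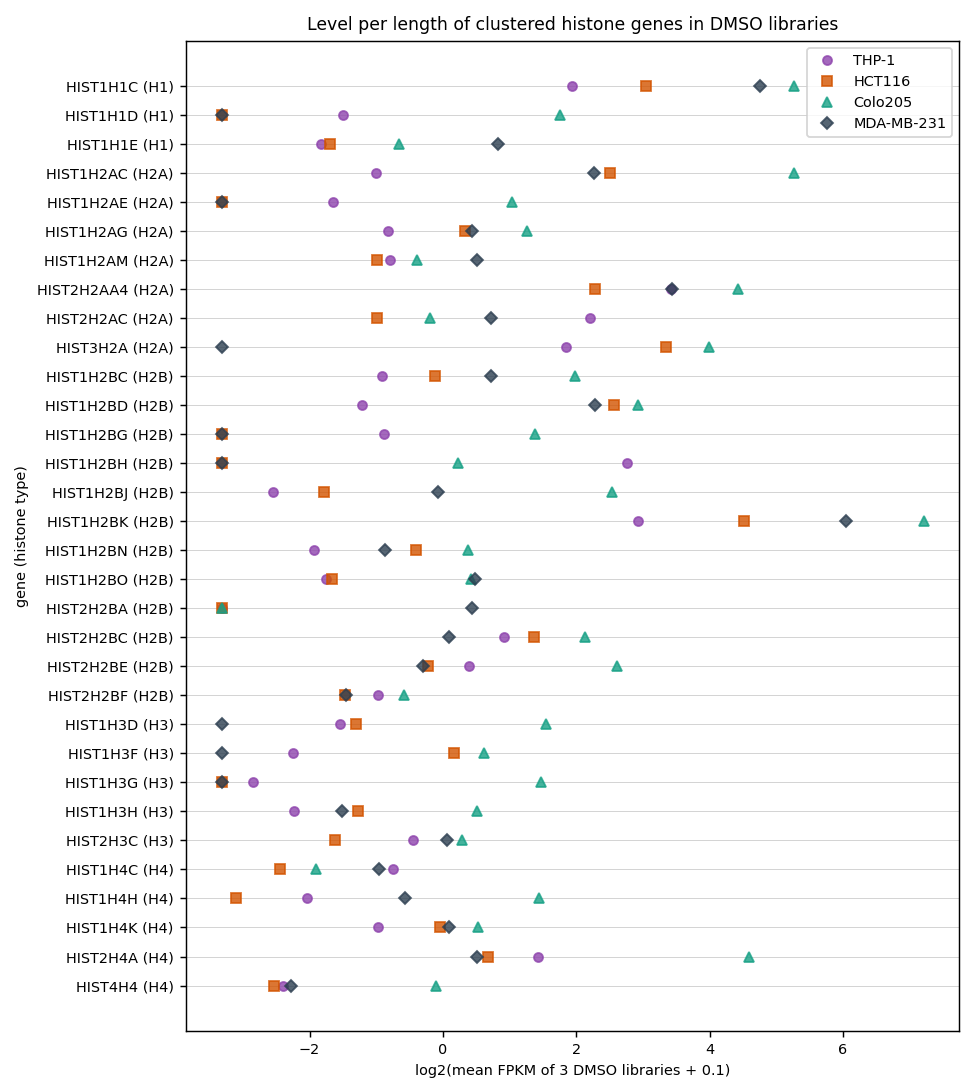
Mean FPKM of 3 DMSO libraries, as log2(FPKM + 0.1), for the 32 reported genes, with 1 symbol per line. HIST1H2BK stands farthest right in the 3 carcinoma lines, and points at the left edge are genes listed at 0.

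A stretch of the HIST1 cluster on chromosome 6 had almost no counts in MDA-MB-231. This stretch was chosen after its values were seen. The 16 genes from HIST1H2BE to HIST1H2BI, which are all the genes of the files between HIST1H2BD and HIST1H4H in the GENCODE 29 order, held 1 count in all 9 MDA-MB-231 libraries together, and 15 of the 16 were at 0. A count of 0 over these 9 libraries allows up to 0.0151 CPM, for counting error only. The neighbour on one side, HIST1H2BD, held 991 counts and the neighbour on the other, HIST1H4H, 159.

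The same 16 genes held 638 counts in the 6 THP-1 libraries, 1912 in the 9 Colo205 libraries and 446 in the 9 HCT116 libraries, with 1, 3 and 7 genes at 0. In HCT116, 332 of the 446 counts came from 1 gene, HIST1H3F. The H3 genes HIST1H3D (378 counts) and HIST1H3F (537 counts) and the H1 gene HIST1H1D (249 counts) led the stretch in Colo205. Farther along chromosome 6 the neighbours HIST1H2AL, HIST1H1B, HIST1H3I and HIST1H4L were at 0 in all MDA-MB-231 and all HCT116 libraries. They held 18, 38, 7 and 5 counts in THP-1 and 32, 40, 9 and 0 in Colo205. On chromosome 1, the divergent pair HIST3H2A and HIST3H2BB was also at 0 in all MDA-MB-231 libraries, while HIST3H2A held 1138 counts in HCT116 and 1136 in Colo205. The reverse was seen for the pseudogene HIST2H2BA, with 122 counts in MDA-MB-231, 3 in THP-1 and 0 in HCT116 and Colo205. Values at 0 were the same with DMSO and with either compound. Their cause was not tested.

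**Figure D3:**
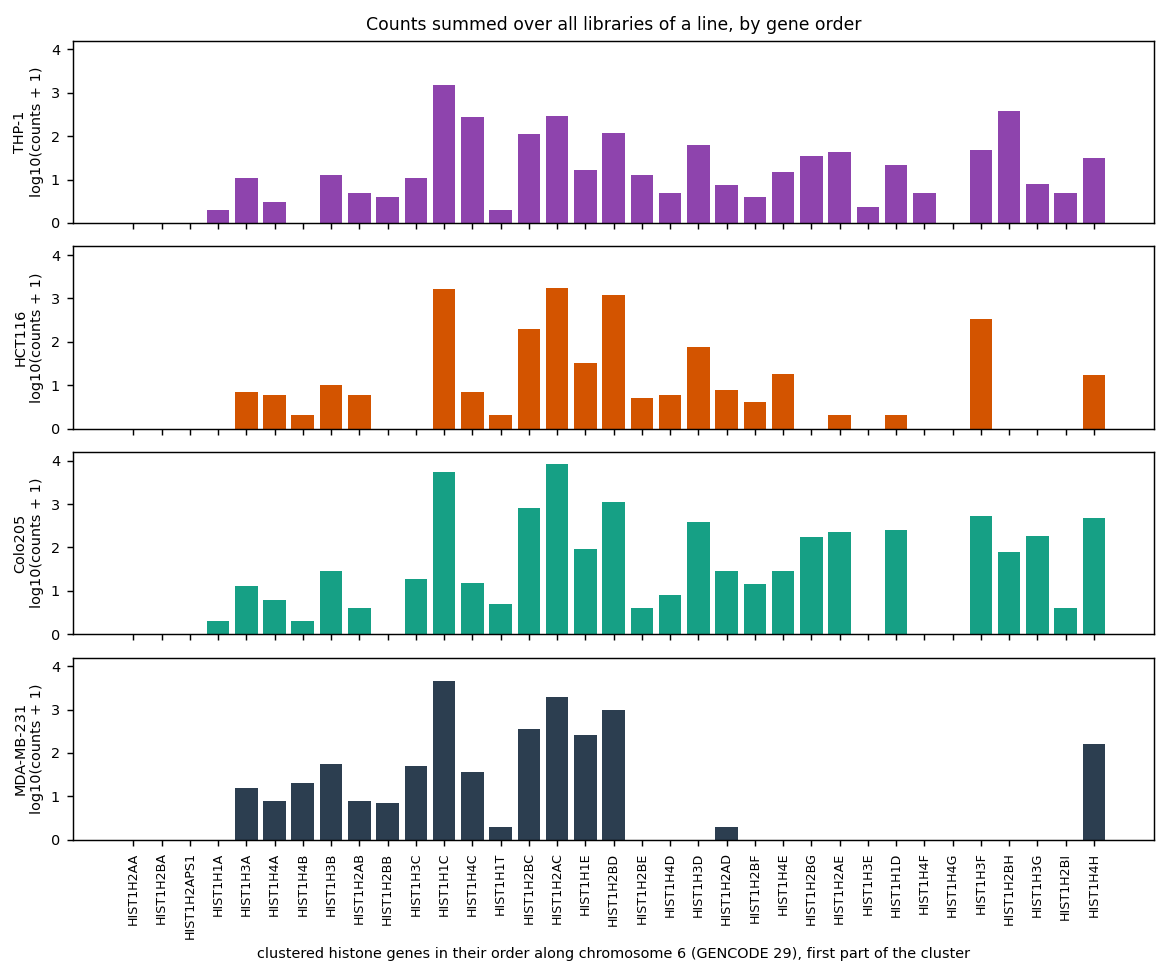
Counts summed over all libraries of a line, as log10(counts + 1), for clustered histone genes in their order along chromosome 6, up to HIST1H4H; each panel is 1 line. In MDA-MB-231 the 16 genes between HIST1H2BD (991 counts) and HIST1H4H (159 counts) hold 1 count.

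In THP-1, the level of most clustered histone genes tested was higher with TAK-981. The sum over the 69 genes went from 41.2 to 169 CPM, or 4.11-fold, and every TAK-981 library was above every DMSO library. Of 16 reported genes with enough counts for the test, 14 rose and none fell, where 35.5% of all genes tested rose and 33.9% fell. The median log2 difference of the 16 was 2.26, beside 0.03 over all genes tested. Passing the filter depended on the TAK-981 libraries for some genes. Of the 16, 9 had 10 or more counts in each DMSO library, and 7 of those 9 rose. HIST1H2AC, HIST1H2BC, HIST1H2BD, HIST1H3D, HIST1H3F, HIST1H4C and HIST2H3C lacked these counts, and the median above includes them. The other 53 of the 69 genes were not tested in THP-1.

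The linker histone gene HIST1H1C stood at 3.91, 3.15 and 2.43 CPM in the DMSO libraries and at 23.8, 24.1 and 24.8 CPM with TAK-981. The groups were far apart, and the log2 difference was 2.96 ± 0.13 (SE, n = 3 and 3, adjusted p = 2.73e-10). With TAK-981 the gene lay between the DMSO libraries of MDA-MB-231, at 18.6 to 21.3 CPM, and those of Colo205, at 25.1 to 30.1 CPM. No other H1 gene was tested in THP-1.

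Among the H2A genes HIST2H2AA4 had 7.57, 6.43 and 5.66 CPM with DMSO and 38.5, 42.6 and 40.0 with TAK-981, a log2 difference of 2.65 ± 0.11 (adjusted p = 9.25e-11). HIST1H2AC, which entered the test through the TAK-981 libraries, had 0.505, 0.789 and 0.871 CPM with DMSO and 4.79, 3.30 and 5.02 with TAK-981. Its difference was 2.61 ± 0.27 (adjusted p = 9.93e-07). In both genes the groups did not overlap. HIST3H2A, the H2A gene of the small HIST3 cluster, rose by 1.19 ± 0.21 (adjusted p = 0.000206). HIST2H2AC did not pass the test, with 2.14, 2.37 and 2.30 CPM against 2.47, 2.31 and 2.59, and its interval of -0.28 to 0.56 lay below the differences of the genes that rose most.

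HIST2H2BE, the divergent neighbour of HIST2H2AC, had 3.09, 2.79 and 3.42 CPM with DMSO and 20.9, 21.0 and 20.5 with TAK-981. Its log2 difference was 2.77 ± 0.12 (adjusted p = 1.71e-10), so genes on either side of 1 short promoter region had intervals that did not overlap. HIST1H2BD and HIST1H2BC rose by 2.51 ± 0.35 and 2.01 ± 0.40 from DMSO means of 0.312 and 0.391 CPM. Both entered the test through the TAK-981 libraries, where they were higher. HIST1H2BK, the leading gene of the carcinoma lines, rose less, by 0.53 ± 0.13 (adjusted p = 0.00246). The pseudogene HIST2H2BC rose by 1.74 ± 0.24. HIST1H2BH did not pass, with 3.28, 3.94 and 2.68 CPM against 3.83, 4.18 and 3.33.

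The H3 genes were low. HIST1H3F went from 0.0625 to 0.774 CPM, HIST1H3D from 0.266 to 0.858 and HIST2H3C from 0.371 to 0.989, and all 3 passed the test with log2 differences of 3.52 ± 0.60, 1.68 ± 0.47 and 1.42 ± 0.36. None of the 3 had 10 counts in each DMSO library, so they entered the test through the TAK-981 libraries where they were higher.

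Of the H4 genes, HIST2H4A had 4.98, 5.28 and 4.92 CPM with DMSO and 38.4, 33.4 and 35.9 with TAK-981. Its log2 difference of 2.85 ± 0.10 had the smallest adjusted p of all clustered histone genes in this line, 4.43e-11. HIST1H4C had 0, 0.425 and 0.249 CPM with DMSO and 5.55, 3.68 and 4.34 with TAK-981. Its fitted difference of 4.30 ± 0.42 (adjusted p = 5.20e-07) rested on a DMSO group that was close to 0. On the FPKM scale the H1 share of the summed level went from 8.82 to 15.5%, the H4 share from 7.98 to 16.3% and the H2B share from 38.9 to 20.6%.

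**Figure D4:**
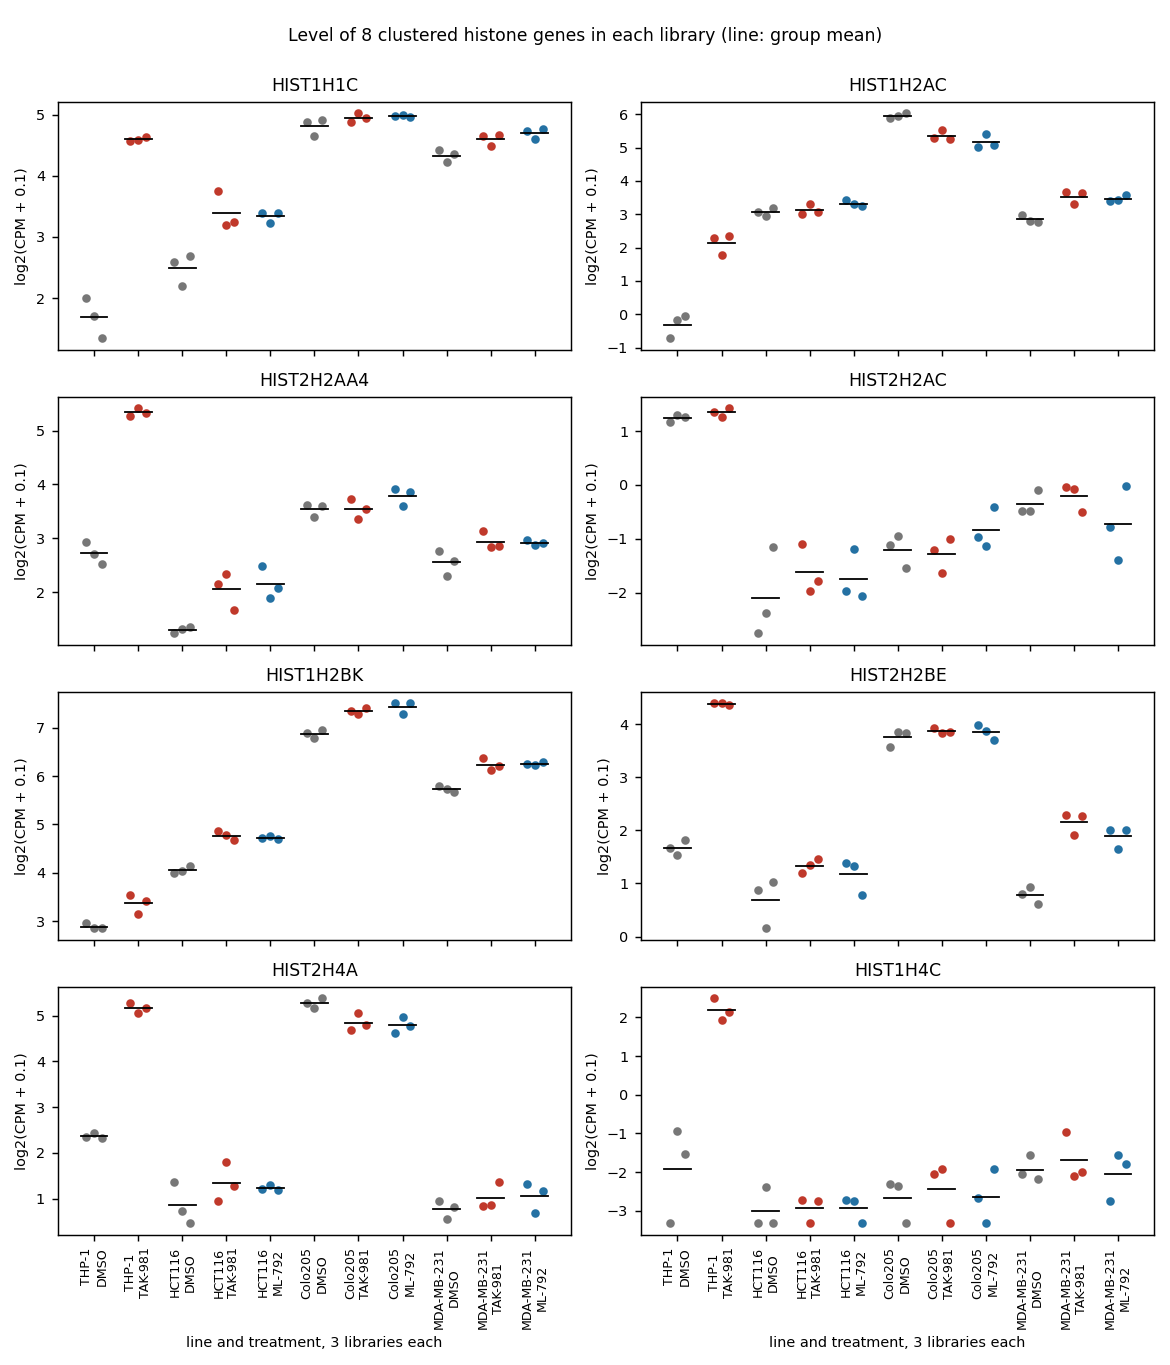
Level of 8 clustered histone genes as log2(CPM + 0.1) in each of the 33 libraries, by line and treatment (grey DMSO, red TAK-981, blue ML-792), with a line at the group mean. In THP-1 HIST2H2BE goes from about 3.09 to 20.9 CPM while its divergent neighbour HIST2H2AC stays between 2.14 and 2.59 CPM.

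In HCT116 a smaller set of genes rose with both compounds. The summed level went from 52.3 ± 3.03 to 78.6 ± 4.77 CPM with TAK-981 and 78.9 ± 2.29 with ML-792 (SD, n = 3), 1.501-fold and 1.508-fold, with no overlap with DMSO libraries. Of 15 genes tested, 5 rose and none fell with TAK-981, where 7.66% of all genes rose and 6.73% fell. With ML-792 5 rose and none fell, beside 5.99% and 5.27%, and these comparisons share the DMSO libraries. The 5 genes carried the same names with each compound: HIST1H1C, HIST2H2AA4, HIST3H2A, HIST1H2BD and HIST1H2BK.

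HIST1H2BK, the highest of them, had 15.8, 16.2 and 17.5 CPM with DMSO, 29.1, 27.2 and 25.4 with TAK-981 and 26.3, 27.1 and 25.7 with ML-792. The treated libraries did not overlap with DMSO, at log2 differences of 0.73 ± 0.08 (adjusted p = 3.64e-05) and 0.68 ± 0.08 (adjusted p = 8.23e-05). HIST1H1C had 5.90, 4.46 and 6.34 CPM with DMSO, 13.4, 9.10 and 9.33 with TAK-981 and 10.4, 9.32 and 10.4 with ML-792. It rose by 0.93 ± 0.17 and 0.85 ± 0.17. HIST1H2BD, with 3.98, 3.91 and 4.71 CPM with DMSO, rose by 0.78 ± 0.16 and 0.75 ± 0.16.

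HIST2H2AA4 had 2.26, 2.39 and 2.47 CPM with DMSO, 4.35, 4.96 and 3.08 with TAK-981 and 5.52, 3.62 and 4.12 with ML-792, differences of 0.81 ± 0.21 and 0.90 ± 0.21. The TAK-981 call was lost without DMSO replicate 1 or 2 or TAK-981 replicate 2, and the ML-792 call without ML-792 replicate 1, with adjusted p up to 0.0835 and 0.0629. HIST3H2A was borderline, at 0.46 ± 0.15 (adjusted p = 0.0476) and 0.54 ± 0.15 (adjusted p = 0.0287). Either call ended without DMSO replicate 1 or 3 or without any 1 of the 3 treated libraries, with adjusted p up to 0.139 and 0.104. The number of genes called fell from 5 to 3 without DMSO replicate 1 or TAK-981 replicate 2, and for ML-792 without ML-792 replicate 1.

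HIST1H2AC, which rose in THP-1, did not pass in HCT116: 8.30, 7.59 and 9.07 CPM with DMSO stood beside 7.96, 9.80 and 8.23 with TAK-981, and the interval of the difference was -0.18 to 0.32. HIST2H4A, at 1.78 CPM with DMSO and 2.51 with TAK-981, did not pass either, with an interval of -0.04 to 1.10. HIST2H2BE had an interval of 0.11 to 1.19 and an adjusted p of 0.101.

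Colo205, the line with the highest summed level in DMSO, showed changes in both directions. The summed level was 338 ± 2.92 CPM with TAK-981 and 343 ± 6.36 with ML-792, beside 320.3 ± 17.95 with DMSO, and the groups overlapped. Of 26 genes tested, 3 rose and 4 fell with TAK-981, where 17.9% of all genes rose and 18% fell. With ML-792 3 rose and 4 fell, beside 20.9% and 20.8%, or 41.8% of all genes in either direction. Both shares of genes called were thus at or under the background. The comparisons share the DMSO libraries.

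The H1 gene HIST1H1D, which codes for H1.3, had 2.16, 2.86 and 2.69 CPM with DMSO, 0.992, 0.828 and 0.693 with TAK-981 and 0.585, 0.985 and 0.493 with ML-792. It fell by 1.61 ± 0.26 (adjusted p = 0.000305) and by 1.86 ± 0.27 (adjusted p = 0.000112) on the log2 scale. HIST1H1C, which rose in the other 3 lines with TAK-981, had 25.1 to 30.1 CPM with DMSO and 29.5 to 32.5 with TAK-981 and did not pass, with an interval of -0.04 to 0.28.

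HIST1H2AC was the second-highest gene in Colo205 DMSO libraries, with 58.6, 62.1 and 65.3 CPM. It had 38.8, 45.7 and 38.2 CPM with TAK-981 and 32.0, 41.9 and 33.8 with ML-792, and the groups did not overlap. It fell by 0.61 ± 0.09 (adjusted p = 0.000168) and by 0.78 ± 0.09 (adjusted p = 1.98e-05). HIST3H2A had 9.50, 6.80 and 7.44 CPM with DMSO and 5.21, 5.38 and 4.38 with ML-792, and fell by 0.66 ± 0.15 (adjusted p = 0.00257). With TAK-981 its difference was -0.37 ± 0.14, with an adjusted p of 0.0579.

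HIST1H2BK had 118, 110 and 124 CPM with DMSO, 162, 155 and 170 with TAK-981 and 182, 157 and 181 with ML-792. All treated libraries were above all DMSO libraries, and the gene rose by 0.46 ± 0.07 (adjusted p = 0.000169) and 0.56 ± 0.07 (adjusted p = 2.90e-05). HIST1H2BD rose with TAK-981 by 0.39 ± 0.14 (adjusted p = 0.0493), a call that leaving out any 1 of the 6 libraries ended, with adjusted p up to 0.142. On the FPKM scale the H2B share of the summed level in DMSO, TAK-981 and ML-792 libraries was 52.7%, 63.1% and 63.9%. The H2A share was 23.7%, 17.1% and 16.4%.

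HIST1H3F had 1.95, 2.53 and 2.06 CPM with DMSO and 3.64, 3.31 and 3.86 with TAK-981, a rise of 0.72 ± 0.19 (adjusted p = 0.00828). With ML-792 it had 3.34, 3.81 and 2.52 CPM, and 1 library overlapped with DMSO. That rise, 0.56 ± 0.19 (adjusted p = 0.0277), was lost without DMSO replicate 1 or 3 or ML-792 replicate 1 or 2, with adjusted p up to 0.117.

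The H4 gene HIST2H4A had 38.4, 35.9 and 41.7 CPM with DMSO, 25.7, 33.4 and 27.5 with TAK-981 and 24.6, 31.2 and 27.1 with ML-792. It fell by 0.43 ± 0.10 (adjusted p = 0.00478) and by 0.48 ± 0.10 (adjusted p = 0.00212), whereas it rose in THP-1. HIST4H4, the single gene of the HIST4 cluster, rose with ML-792 by 0.64 ± 0.19 (adjusted p = 0.0169), which was lost without DMSO replicate 2, at an adjusted p of 0.0718. HIST1H4K, at 0.565, 0.562 and 0.343 CPM with DMSO and 0, 0.276 and 0 with TAK-981, also passed (adjusted p = 0.0272), but was lost without any 1 of 4 libraries, DMSO replicates 1 and 2 and TAK-981 replicates 1 and 3, with adjusted p up to 0.104. Its counts were fractional in most libraries.

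In MDA-MB-231 6 of 19 genes tested rose with TAK-981 and none fell, where 10.6% of all genes rose and 9.52% fell, 20.2% in all. With ML-792 6 rose and none fell, beside 11.6% and 11% of all genes, against the same DMSO libraries. The summed level went from 105 ± 4.24 to 143 ± 12.2 CPM with TAK-981 and 144 ± 5.88 with ML-792 (SD, n = 3), 1.37-fold and 1.38-fold, without overlap with DMSO. The genes were HIST1H1C, HIST1H2AC, HIST2H2AA4, HIST1H2BD, HIST1H2BK and HIST2H2BE with each compound.

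HIST2H2BE changed most, from 1.65, 1.81 and 1.43 CPM with DMSO to 4.76, 3.69 and 4.75 with TAK-981 and 3.90, 3.04 and 3.94 with ML-792. It rose by 1.45 ± 0.19 (adjusted p = 3.52e-05) and 1.16 ± 0.19 (adjusted p = 0.000329). Its neighbour HIST2H2AC was tested here too and did not pass, with 0.611, 0.619 and 0.837 CPM against 0.870, 0.854 and 0.606 with TAK-981, at an interval of -0.59 to 0.96.

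HIST1H2BK had 55.4, 52.9 and 50.7 CPM with DMSO, 83.1, 70.1 and 73.5 with TAK-981 and 75.7, 74.8 and 77.9 with ML-792, and rose by 0.53 ± 0.06 with each compound (adjusted p = 8.76e-06 and 8.33e-06). HIST1H2AC had 7.81, 6.85 and 6.74 CPM with DMSO, 12.5, 9.80 and 12.2 with TAK-981 and 10.51, 10.6 and 11.9 with ML-792. In this line it rose, by 0.71 ± 0.11 (adjusted p = 0.000252) and 0.63 ± 0.11 (adjusted p = 0.000631), where it fell in Colo205.

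HIST1H1C rose by 0.29 ± 0.08 with TAK-981 from 21.3, 18.6 and 20.4 CPM to 25.0, 22.4 and 25.4, and by 0.38 ± 0.08 with ML-792. The TAK-981 call was lost without TAK-981 replicate 3 (adjusted p = 0.0645). HIST1H2BD rose by 0.60 ± 0.17 and 0.73 ± 0.16, and its TAK-981 call was lost without TAK-981 replicate 1 or 3 (adjusted p up to 0.0930). HIST2H2AA4, at 0.40 ± 0.13 and 0.37 ± 0.13, lost its call without 4 libraries for TAK-981 (DMSO replicates 2 and 3, TAK-981 replicates 1 and 3) and 5 for ML-792 (DMSO replicates 2 and 3 and each ML-792 library), with adjusted p up to 0.150 and 0.172. Without TAK-981 replicate 3 the number of genes called with TAK-981 went from 6 to 3.

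**Figure D5:**
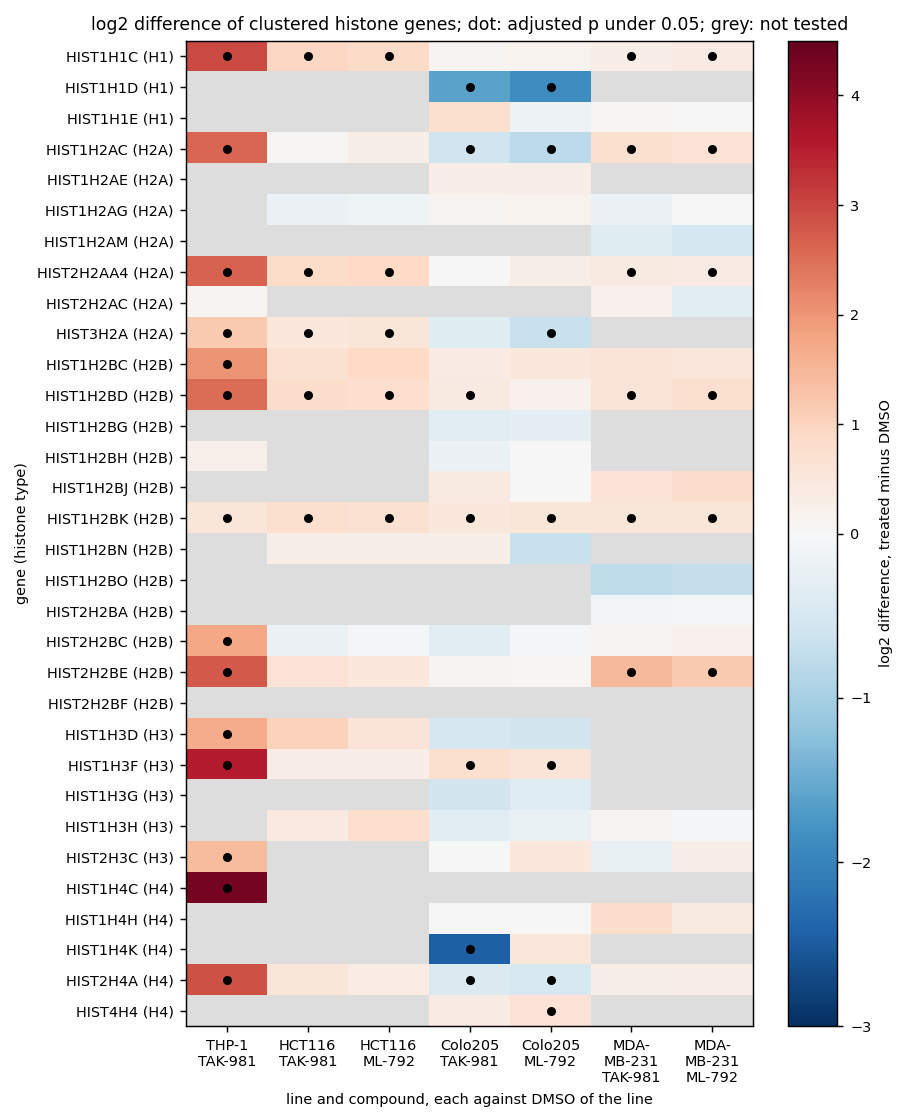
Log2 difference from DMSO (colour) of the 32 reported genes (rows, with histone type) for each line and compound (columns); dots mark an adjusted p under 0.05 grey cells genes not tested, and colours deepen faster below 0 than above it. THP-1 has dots in 14 rows, and HIST1H2BK is the gene with a dot in every column.

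With TAK-981, HIST1H2BK and HIST1H2BD were called higher in all 4 lines, HIST1H1C and HIST2H2AA4 in 3, and HIST1H2AC, HIST2H2BE, HIST1H3F and HIST3H2A in 2. Whether the response differed between lines was tested directly. Of 32 genes, 13 had a TAK-981 response that differed among the 4 lines, beside 57.7% of all genes tested. Among the 13, HIST1H3D, HIST1H3F and HIST3H2A were at 0 in every MDA-MB-231 library, so that line gave no response to compare for them. The response of THP-1 was above the mean response of the 3 carcinoma lines for 10 genes and below it for none, beside 22.7% and 25.4% of all genes, or 48.1% in either direction. For 9 of the 32 genes this difference could not be estimated, since they were at or near 0 throughout a line.

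HIST1H1C differed by 2.50 ± 0.18 on the log2 scale (adjusted p = 1.92e-12). HIST2H4A, whose counts were fractional in 29 of 33 libraries, differed by 2.70 ± 0.20 (adjusted p = 3.45e-12). HIST1H2AC, which was low in THP-1 DMSO libraries, differed by 2.54 ± 0.26 (adjusted p = 2.08e-09), and by 1.45 to 2.80 over the alternatives. HIST2H2AA4 differed by 2.23 ± 0.16 and HIST2H2BE by 2.02 ± 0.17. HIST1H2BD and HIST1H2BC, also low in THP-1 DMSO libraries, ranged from 0.86 to 2.34 and from 0.49 to 1.84 over the alternatives. HIST1H4C had a fitted difference of 3.94 ± 1.06 and was close to 0 in the carcinoma lines. HIST2H3C, at 1.35 ± 0.51 (adjusted p = 0.0289), was lost without THP-1 DMSO replicate 4 or HCT116 DMSO replicate 2, with adjusted p up to 0.0958. HIST1H2BK, called in every line, was not among the 10, with a difference of -0.06 and an interval of -0.31 to 0.20. Among the 13 genes whose response differed among lines, HIST1H2BC was lost without THP-1 DMSO replicate 4.

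The compounds were compared with each other in each carcinoma line at 1 uM and 16 h, over 15, 26 and 19 genes in HCT116, Colo205 and MDA-MB-231. No clustered histone gene differed by edgeR, beside 0.0481%, 0.00707% and 0.0215% of all genes (in MDA-MB-231 0.0143% higher and 0.00716% lower with TAK-981), and at an unadjusted p under 0.05 there were 0, 4 and 0. Without ML-792 replicate 2 there were 2 in Colo205. For HIST1H2BK the interval of TAK-981 minus ML-792 was -0.12 to 0.21 in HCT116, -0.25 to 0.05 in Colo205 and -0.12 to 0.12 in MDA-MB-231. HIST2H2BE in MDA-MB-231 had an interval of -0.06 to 0.64 and HIST1H2AC in Colo205 one of -0.03 to 0.38. HIST1H4K in Colo205 had the widest difference, -2.96 with an interval of -4.57 to -1.34, and an adjusted p of 0.309. A p above the threshold does not show that the compounds act alike.

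Genes that transcribe, process and place histones were followed through lists, and for these the values of TAK-981 are given unless ML-792 is named. The shares of all genes that rose and fell with TAK-981 were 35.5% and 33.9% in THP-1, 7.66% and 6.73% in HCT116, 17.9% and 18% in Colo205, and 10.6% and 9.52% in MDA-MB-231, and each list is to be read against them. Of 22 tested genes of histone 3' end processing and turnover, 5 rose and 8 fell in THP-1, with a median log2 difference of -0.04. The 4 with the smallest adjusted p there all fell: MIF4GD (-1.83 ± 0.09), SNRPD3 (-1.37 ± 0.07), SNRPB (-0.85 ± 0.07) and NCBP1 (-0.59 ± 0.08). SLBP rose in Colo205 by 1.03 ± 0.08 with TAK-981 and 1.00 ± 0.08 with ML-792 (adjusted p = 3.43e-07 and 4.62e-07), and in THP-1 by 0.31 ± 0.08 (adjusted p = 0.00424). Its differences were -0.04 and -0.11 in HCT116 and 0.12 and 0.07 in MDA-MB-231, which did not pass. In Colo205, 4 genes of this list rose and 9 fell with TAK-981. In HCT116 2 rose and 2 fell with TAK-981, led by ERI1, the exonuclease that trims the histone stem-loop, which fell by 0.74 ± 0.08. In MDA-MB-231 1 rose and 3 fell.

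Of the genes that drive histone transcription, 5 of 13 rose and 3 fell in THP-1 (beside 35.5% and 33.9% of all genes), 1 rose and 2 fell in HCT116, 4 of 14 rose and 1 fell in Colo205, and 4 of 13 rose and 1 fell in MDA-MB-231 with TAK-981. In THP-1 the smallest adjusted p were those of CRAMP1L (0.80 ± 0.07), GON4L (0.65 ± 0.07), POU2F1 (-0.59 ± 0.07) and CREBBP (0.58 ± 0.07). NPAT is the cofactor that binds the histone clusters at the start of DNA replication. It rose by 0.21 ± 0.08 in THP-1, 0.32 ± 0.08 in Colo205 and 0.21 ± 0.05 in MDA-MB-231. In HCT116 NPAT stood at -0.14 ± 0.10, which did not pass.

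Among 18 genes of the entry into S phase, 7 rose and 7 fell in THP-1, beside 35.5% and 33.9% of all genes. CDKN1A, which codes for the cell cycle inhibitor p21, rose there by 2.26 ± 0.09 (adjusted p = 1.22e-10) and in HCT116 by 0.62 ± 0.08, and fell by 0.50 ± 0.11 in Colo205 and by 0.25 ± 0.05 in MDA-MB-231. CCNE2, which codes for cyclin E2, a driver of S phase entry, rose by 0.64 ± 0.10 in THP-1 and 0.50 ± 0.07 in Colo205, fell by 0.27 ± 0.08 in HCT116 and stood at 0.05 ± 0.05 in MDA-MB-231, which did not pass. CDKN1B, which codes for the inhibitor p27, rose in THP-1 by 1.49 ± 0.09, while TYMS, which codes for the enzyme thymidylate synthase, fell by 0.83 ± 0.08. In HCT116 4 rose and 3 fell, in Colo205 6 and 4, and in MDA-MB-231 4 and 6, with TAK-981.

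Of 23 histone chaperone genes 8 rose and 13 fell in THP-1, with a median of -0.22, beside 35.5% and 33.9% of all genes. NAP1L1 and SSRP1 fell there by 1.06 ± 0.09 and by 0.85 ± 0.07. With TAK-981 1 rose and 2 fell in HCT116, and 1 rose and 6 fell in both Colo205 and MDA-MB-231. All genes also passed less often there, at 14.4%, 35.9% and 20.2% in HCT116, Colo205 and MDA-MB-231, against 69.4% in THP-1.

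Histone genes outside the clusters, whose RNA carries a poly(A) tail as a rule, were tested as a list too. Of 11 tested in THP-1, 4 rose and 5 fell, with a median of -0.13, beside 35.5% and 33.9% of all genes. H1F0, the linker histone of resting and differentiated cells, rose by 1.48 ± 0.06 (adjusted p = 1.98e-10) and H2AFJ by 1.08 ± 0.09, while H3F3A, a gene for histone H3.3, fell by 1.83 ± 0.12 and H2AFV, a gene for an H2A.Z form, by 1.17 ± 0.07. With TAK-981 5 rose and none fell in HCT116, 5 rose and 3 fell in Colo205, and 3 of 10 rose and 3 fell in MDA-MB-231. CENPA, the centromeric H3, rose by 0.85 ± 0.08 in HCT116, 0.95 ± 0.07 in Colo205 and 0.30 ± 0.05 in MDA-MB-231.

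A list of small RNAs that as a rule carry no poly(A) tail was also followed, of which 18 had a row. Their summed level was 0.498 to 0.910 CPM in THP-1 DMSO libraries and 0.740 to 0.825 CPM with TAK-981, overlapping ranges, and 12 of the 18 were at 0. None of them was tested in THP-1. In MDA-MB-231 this sum was 2.96 to 3.24 CPM with DMSO, 1.57 to 2.25 with TAK-981 and 2.22 to 2.60 with ML-792, and RMRP and RPPH1, RNA parts of ribonucleases, fell by 1.86 ± 0.48 and by 1.06 ± 0.33 with TAK-981. What part untailed RNA has in the clustered histone counts was not tested.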

How the data were processed

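RNA was extracted with RNeasy and poly(A) libraries were made with TruSeq chemistry, per the labels' protocols. Not given in the sources used here were the aligner, the counter, the build, the annotation and the strand setting. The authors estimated a count for each gene from the reads and deposited these expected counts without scaling, per the file headers. The authors also deposited FPKM values, scaled to length and depth, per the file headers. Estimated counts were rounded to whole numbers for tests. No value column was left unused (0).

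Genes were kept by filterByExpr (minimum count 10, minimum total 15) and scaled by TMM within each comparison. They were tested with edgeR 4.0.16's quasi-likelihood test in R 4.3.3, with Benjamini-Hochberg adjustment over all genes tested, at a threshold of 0.05. Each line was fitted alone, and the comparisons between lines over all 4 lines. Log2 differences have SEs and 95% intervals. Printed CPM values use TMM over all 33 human libraries, and the limit of 0.5 CPM uses unscaled CPM. FPKM served only for levels between genes and, with limma 3.58.1 and pseudocounts of 0.1 and 1, as an alternative. DESeq2 1.42.0 was another. The fit was tested on simulated data in which only genes with higher counts were changed, so that test does not cover the histone genes with few counts.

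Values by library are given for up to 6 called genes with the smallest adjusted p per comparison and for the 5 genes of highest mean FPKM; a few others, such as HIST2H2AC and HIST1H2BH, were added after their values were seen. The members and lists were chosen with earlier results of these data known. Within groups, 33 library pairs had a chi-square per degree of freedom of 2.13 to 19.0, and 0 were identical.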

Additional observations from a re-analysis of the deposited data

Results flagged for a closer look

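The TAK-981 response differed among the 4 human lines for 13 of 32 clustered histone genes by an interaction test, where 57.7% of all genes differed. For HIST1H3D, HIST1H3F and HIST3H2A, among the 13, MDA-MB-231 was at 0 throughout and gave no response. The response to TAK-981 was then compared between THP-1 and the carcinoma lines. It was larger in THP-1 than the mean of the 3 carcinoma lines for 10 genes and smaller for none, beside 22.7% and 25.4% of all genes, and the difference itself was tested. On the log2 scale it was 2.50 for HIST1H1C, 2.54 for HIST1H2AC, 1.47 for HIST1H2BC, 1.91 for HIST1H2BD and 3.94 for HIST1H4C. It was 2.23 for HIST2H2AA4, 1.86 for HIST2H2BC, 2.02 for HIST2H2BE, 1.35 for HIST2H3C and 2.70 for HIST2H4A. HIST1H2AC, HIST1H2BC, HIST1H2BD, HIST1H4C and HIST2H3C did not have 10 counts in each THP-1 DMSO library, so their values rest on low DMSO levels. The call of HIST2H3C was lost without THP-1 DMSO replicate 4 or HCT116 DMSO replicate 2. THP-1 is a single line grown in another plate format, so these values compare lines, not tissues.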

How the results depend on the processing

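Of 101 called results for clustered histone genes, 86 kept their direction and their side of the threshold under every alternative that was run, and 1889 of 1942 alternative values did so. An alternative that gave no usable value for a gene was not counted. The 101 include 28 calls on DMSO levels, where 99.1% of all genes were called, and 14 in THP-1, and all of these were kept. The calls that were lost lay in the carcinoma lines and in the tests of the response between lines. Using FPKM with limma, the genes called in Colo205 with TAK-981 went from 7 to 11 (pseudocount 0.1) and 12 (pseudocount 1), and those of THP-1 against the carcinoma lines from 10 to 20 and 19; the cause was not tested. RBBP4 with ML-792 in HCT116 turned from -0.22 to 0.33 with both pseudocounts, where it was not called. DESeq2 ended the calls of HIST3H2A (HCT116, TAK-981), HIST1H2BD (Colo205, TAK-981), HIST1H3F and HIST4H4 (Colo205, ML-792) and HIST2H2AA4 (MDA-MB-231, both compounds). The pseudocount of 1 ended those of HIST1H2BC and HIST1H4H in the test among lines. Leaving out 1 library gave 14 to 15 genes called in THP-1, 3 to 4 and 3 to 5 in HCT116 with TAK-981 and ML-792, 5 to 7 and 6 to 8 in Colo205, and 3 to 6 and 5 to 6 in MDA-MB-231. TAK-981 against ML-792 then gave 0 to 0 in HCT116 and MDA-MB-231 and 0 to 2 in Colo205. The test among lines gave 12 to 14, THP-1 against the carcinoma lines 8 to 11, and the DMSO levels 28 to 30. Deviations of same-numbered libraries correlated at -0.103 to 0.137 over all genes tested and at -0.339 to 0.486 over genes of 10 CPM or more. In no line did every pair pass 0.1, so the numbers were not taken to pair the libraries. Over the genes of 10 CPM or more, however, all 3 pairs did in Colo205 for ML-792 with DMSO and with TAK-981, and in MDA-MB-231 for TAK-981 with DMSO (where the block gave 6 genes, as without it). With the replicate block, TAK-981 against ML-792 in Colo205 gave 1 gene in place of 0, HIST3H2A in HCT116 with TAK-981 lost its call, and ML-792 against DMSO in Colo205 gave 10 genes in place of 7. Without TMM scaling the THP-1 sum went from 35.6 to 176 CPM, and with mitochondrial genes also left out from 38.4 to 208. Leaving out genes by the symbol prefix MT- was not run, since no row has it; taking them by Ensembl ID was chosen after seeing the data. Genes under about 10 counts per library are limited by depth.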
